A study of Homo sapiens with 24 samples.

Results

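The comparison set the untreated neratinib-resistant (NR) state of one carcinoma cell line against that of another, and asked which transcripts had changed alike in both lines, which had changed oppositely, and which had changed in 1 line by an amount that differed from the other. The libraries were chosen by the labels alone: the 12 control libraries of the series, out of 24, in 4 groups of 3. 5637 is a line from a human bladder carcinoma and OVCAR8 a line from a human ovarian carcinoma. The groups were 5637 parental control, 5637 NR control, OVCAR8 parental control and OVCAR8 NR control, and none of their dishes received neratinib in the experiment. The NR cells of both lines had been kept without drug for 1 week before they were seeded, so each NR effect is that of cells resting off drug against parental cells never selected. The 12 other libraries were the same cells after 24 h of neratinib, at 600 nM in 5637 and 1 µM in OVCAR8, and they are used below in a separate fit and, as an alternative, in 1 fit of all 24. Each NR line was labelled by one name, and how it was derived and whether it is a clone is not given in the sources used here. Every group came from dishes seeded in triplicate, so the p-values measure the spread between such dishes, which may be technical.

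Neratinib binds irreversibly to the kinase domains of EGFR, ERBB2 and ERBB4 and shuts off the signal those receptors send into the RAS–ERK and PI3K–AKT pathways. ERK signaling turns on a set of immediate targets that includes its own brakes, the dual-specificity phosphatases and Sprouty proteins, while NF-kB and AP-1 factors drive the cytokine and chemokine genes that epithelial cancer cells make under stress. Bladder and ovarian carcinoma cells differ in lineage: urothelial cells carry basal keratins and uroplakins, and cells of Müllerian origin carry PAX8 and WT1.

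Total read counts of the control libraries ran from 23849832 (OVCAR8 NR control replicate 2) to 42892034 (OVCAR8 NR control replicate 1). One library stood apart from the rest. In OVCAR8 parental control replicate 2, genes longer than 8 kb held 14.1% of the counts, against 20.7% to 21.7% in the other 11 control libraries, and the chi-square per gene against its 2 fellow replicates was 163 and 181, against 2.86 to 15.9 in all other replicate pairs. With it, the median OVCAR8 effect ran from -0.17 (log2) in genes of 1 to 2 kb to 0.15 in genes over 8 kb, and without it the median was 0.00 in every length class. The main counts of genes and lists are therefore given with and without this library, which is the second of the OVCAR8 parental values wherever 3 are printed. Urothelial and basal markers, 10 of 11 tested, summed to 5162.2 to 5301.4 CPM in 5637 parental and 836.9 to 909.2 CPM in 5637 NR libraries, and to 25.3 to 31.3 CPM in all OVCAR8 libraries. Müllerian markers, 6 of 8 tested, summed to between 265.4 and 742.7 CPM over all 12 libraries, and this sum did not separate the lines. Single markers went both ways. PAX8, MSLN and FOLR1 averaged 12.2, 3.94 and 0.0407 CPM in 5637 parental and 146, 319 and 10.8 CPM in OVCAR8 parental libraries. WT1, MUC16 and BCAM were higher in 5637 parental libraries, at 7.32, 280 and 289 against 3.73, 0.024 and 131 CPM. Leukocyte markers, 2 of 5 tested, and endothelial markers, 2 of 4 tested, summed to at most 4.48 CPM in any library. Fibroblast markers, 3 of 5 tested, summed to 1205.5 to 1255.5 CPM in OVCAR8 parental and 856.1 to 946.3 CPM in OVCAR8 NR libraries. In 5637 they summed to 148.6 to 154.3 CPM in parental and 44.2 to 51.0 CPM in NR libraries. Most of this was COL1A1, with means of 1210 and 889 CPM in OVCAR8 and 137 and 45.1 CPM in 5637.

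More genes differed between NR and parental cells in 5637 than in OVCAR8, and the changes of the 2 lines were nearly unrelated across genes. In the fit of all 12 libraries with edgeR's quasi-likelihood test (adjusted p under 0.05, over 19081 genes), 4213 genes rose in 5637 NR cells (22.1% of those tested) and 3729 fell (19.5%). Together these are 41.6% of the genes tested. In OVCAR8 NR cells 689 genes rose (3.61%) and 687 fell (3.6%), together 7.21%. The difference between the lines, tested gene by gene as the OVCAR8 effect minus the 5637 effect, was called for 2311 genes in the higher direction (12.1%) and 2907 in the lower (15.2%). Without OVCAR8 parental control replicate 2 the OVCAR8 counts became 1470 up and 1458 down (7.48% and 7.42% of 19661 genes), the 5637 counts 5917 and 5453 (30.1% and 27.7%, together 57.8%), and the difference was called for 3975 higher and 4385 lower genes (20.2% and 22.3%). The median absolute log2 change was 0.416 in 5637 and 0.237 in OVCAR8, and 0.423 and 0.169 without that library. As a description across genes, which are not independent replicates, Pearson's r between both effects was 0.079 and Spearman's rho 0.094.

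Among these, 317 genes rose in both lines (1.66% of genes tested) and 223 fell in both (1.17%). A further 184 rose in 5637 and fell in OVCAR8 (0.964%), and 119 fell in 5637 and rose in OVCAR8 (0.624%). The genes up in both lines made up 46% of the OVCAR8 rises and 7.52% of the 5637 rises, and the genes down in both made up 32.5% of the OVCAR8 falls and 5.98% of the 5637 falls. Of the OVCAR8 falls 26.8% had risen in 5637, and of the OVCAR8 rises 17.3% had fallen there. Over all genes tested, 22.1% rose and 19.5% fell in 5637. The opposite shares thus lay near those of all genes, while the shares of 46% and 32.5% for shared directions lay above them. Without OVCAR8 parental control replicate 2 the 4 counts were 710 (3.61%), 567 (2.88%), 498 (2.53%) and 361 (1.84%). Of the genes in these 4 sets with all libraries, 308 of 317, 217 of 223, 180 of 184 and 117 of 119 kept their pair of calls without it. Genes that shared a direction could differ in size. The difference between lines was called for 132 of the 317 genes up in both and 82 of the 223 down in both. It was called for all 184 and all 119 genes that went opposite ways. Calls of opposite sign in the same fit nearly fix that outcome, so it is no separate result. Some of the genes were weakly expressed in one of the lines, and 209, 134, 117 and 71 of the 4 sets reached a mean of 5 CPM in both. Of all genes tested, with 1 entry per symbol, 9868 of 18767 did, a smaller share than in any of the sets. In the order of the 4 sets, 316, 220, 183 and 119 had no overlap between parental and NR libraries in either line. Calls from these same libraries largely bring such separation, so it is no separate result, and the share over all genes is not given. For the largest genes up or down in both lines it was also a condition of naming.

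**Figure D1:**
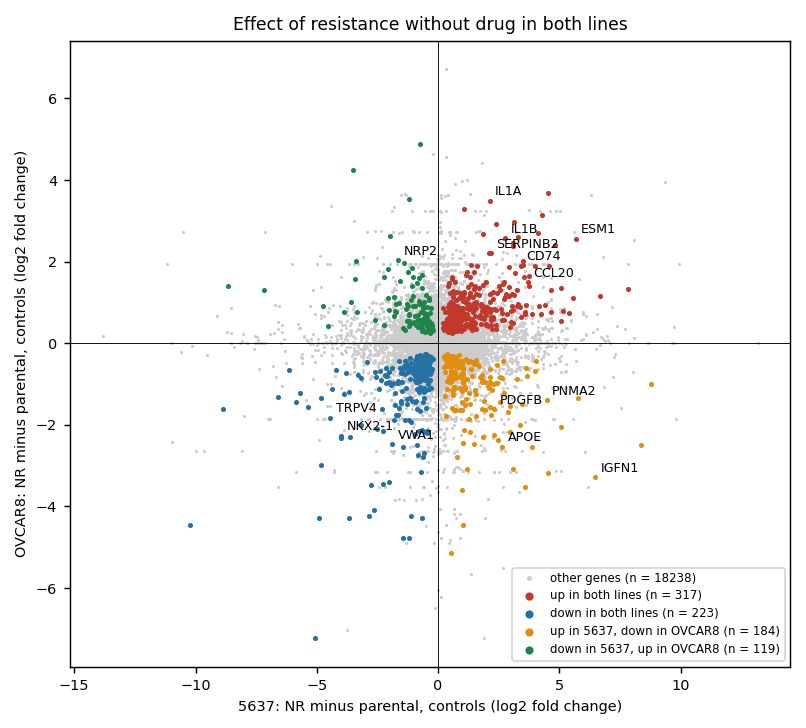
Each point is 1 of 19081 genes tested in the control libraries, with its log2 fold change (NR minus parental) in 5637 on the x axis and in OVCAR8 on the y axis. Colours mark the 317 genes up in both lines, 223 down in both, 184 up in 5637 and down in OVCAR8 and 119 the other way, and the cloud of grey genes is wider along the 5637 axis.

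Inflammatory genes rose in both lines. Of 26 tested genes on a list of NF-kB and inflammatory genes (28 listed), 21 rose and 2 fell in 5637, and 11 rose and 2 fell in OVCAR8 (11 and 4 without OVCAR8 parental control replicate 2, with 2 then down in both lines). The list's median log2 change was 1.59 in 5637 and 0.40 in OVCAR8 (0.50 without that library), against 0.01 and 0.00 over all genes. For this and every list below, the shares of all genes called were 22.1% up and 19.5% down in 5637. In OVCAR8 they were 3.61% and 3.6%, or 7.48% and 7.42% without that library. All 11 OVCAR8 rises had also risen in 5637, among them the cytokines IL1A, IL1B and IL6 and the neutrophil-attracting chemokines CXCL1 and CXCL2. The size differed: the effect in OVCAR8 was called lower than in 5637 for 14 of the 26 genes and higher for 1 (15 and 3 without that library). Over all genes tested, the difference was called lower for 15.2% and higher for 12.1% (22.3% and 20.2% without that library).

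Promoter stretches of some genes up in both lines are shown as description. Of the 11 inflammatory ones, 6 hold an NF-kB consensus in the window from 250 bases before to 50 after the RefSeq start. These 11 come from a list named for NF-kB, so that share does not describe genes up in both lines at large. A role of NF-kB in their rise was not tested. Sequences and positions are from RefSeq on GRCh38.p14, read on the gene's strand and ended at the start site at the latest. Capitals mark the match, with overlapping matches joined, and both strands were searched.
CXCL1 (chr4:73869294-73869344, + strand): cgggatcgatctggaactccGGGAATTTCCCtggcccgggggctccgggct
CXCL2 (chr4:74099243-74099293, - strand): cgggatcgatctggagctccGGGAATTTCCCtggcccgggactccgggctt
CXCL5 (chr4:73998738-73998788, - strand): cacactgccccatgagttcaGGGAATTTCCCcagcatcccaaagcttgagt
CCL20 (chr2:227813743-227813792, + strand): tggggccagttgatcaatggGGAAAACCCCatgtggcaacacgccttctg
IL6 (chr7:22727107-22727156, + strand): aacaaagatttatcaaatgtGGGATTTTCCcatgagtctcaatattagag
BIRC3 (chr11:102317265-102317314, + strand): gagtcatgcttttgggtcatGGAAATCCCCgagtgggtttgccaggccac
The AP-1 motif TGANTCA stood in the windows of IL1A and SERPINB2, the cytokine and the plasminogen activator inhibitor described next.
IL1A (chr2:112784494-112784525, - strand): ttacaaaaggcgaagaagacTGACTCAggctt
SERPINB2 (chr18:63887583-63887629, + strand): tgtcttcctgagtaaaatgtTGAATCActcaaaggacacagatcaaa
An NF-kB consensus was found in 5.73% of all 27195 promoter windows, in 6.6% of the 11865 tested genes with a window, in 10.5% of the 219 genes up in both lines and in 10.9% of the 165 genes down in both. TGANTCA was found in 7.73%, 5.11%, 8.22% and 4.85% of these. A match describes letters in a window and is not a binding site.

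IL1B (ENSG00000125538.7, hg19 chr2:113587328-113594480), an inflammatory cytokine, measured 95.5, 103.6 and 98.1 CPM in 5637 parental and 642.7, 638.0 and 730.3 CPM in 5637 NR libraries, where CPM is the count scaled to library size, with library sizes adjusted by TMM factors. In OVCAR8 it measured 2.81, 4.04 and 3.55 CPM in parental and 19.0, 21.3 and 21.1 CPM in NR libraries. The groups did not overlap in either line, and the log2 change was 2.76 ± 0.11 (SE) in 5637 and 2.57 ± 0.12 in OVCAR8, with a difference of -0.19 that was not called (edgeR adjusted p = 0.44). IL1A (ENSG00000115008.5, hg19 chr2:113531492-113542167), its neighbour and relative, measured 105.5, 98.7 and 94.2 CPM in 5637 parental and 438.4, 462.0 and 401.9 CPM in NR libraries. In OVCAR8 it went from 1.07, 1.22 and 1.63 CPM to 13.8, 15.7 and 15.0 CPM. Again no parental library reached an NR library, and here the rise was larger in OVCAR8, by 1.37 ± 0.17 on the log2 scale (edgeR adjusted p = 8e-05).

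CCL20 (ENSG00000115009.7, hg19 chr2:228678558-228682272), the chemokine that binds CCR6, measured 1.84, 1.58 and 1.3 CPM in 5637 parental and 20, 21.1 and 21 CPM in 5637 NR libraries. Its OVCAR8 values were 2.39, 3.07 and 2.97 CPM against 6.88, 9.32 and 7.75 CPM. Both lines rose without overlap, 5637 by 3.71 and OVCAR8 by 1.5 (log2), and the difference was -2.21 (edgeR adjusted p = 9.3e-06). CXCL2 (ENSG00000081041.8) rose by 1.34 in 5637 and 1.44 in OVCAR8, from 2.69, 3.82 and 2.68 CPM to 8.52, 8.83 and 7.5 CPM in the latter. BIRC3 (ENSG00000023445.9), an inhibitor of apoptosis that NF-kB induces, rose by 0.85 and 1.10, and neither of these genes had a difference called between lines (adjusted p = 0.76 and 0.37). IL6 (ENSG00000136244.7, hg19 chr7:22765503-22771621) rose from 0.303, 0.297 and 0.45 CPM to 14.0, 14.7 and 16.1 CPM in 5637 and from 3.74, 5.54 and 4.53 CPM to 6.88, 8.87 and 7.2 CPM in OVCAR8. Its groups did not overlap in either line, and the log2 change was 5.40 in 5637 and 0.73 in OVCAR8 (difference -4.66, adjusted p = 8.9e-08). CXCL1 (ENSG00000163739.4) rose by 1.96 in 5637 and by 0.70 in OVCAR8, where it stayed at 1.82 to 3.84 CPM. The OVCAR8 calls of CXCL1 and IL6 were lost when each line was fitted alone (adjusted p = 0.11 for each), and that of IL6 also without OVCAR8 NR control replicate 2 (0.07).

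Further genes that rose in both lines coded for secreted and surface proteins. SERPINB2 (ENSG00000197632.4, hg19 chr18:61538926-61571124), an inhibitor of plasminogen activators, measured 63.7, 66.2 and 61.7 CPM in 5637 parental and 287.3, 273.0 and 304.7 CPM in NR libraries. OVCAR8 libraries held 1.72, 0.971 and 1.1 CPM against 5.88, 5.44 and 6.47 CPM. The rises were 2.17 and 2.21 on the log2 scale, and the difference of 0.04 was not called (edgeR adjusted p = 0.94). ESM1 (ENSG00000164283.8, hg19 chr5:54273692-54318499), a secreted proteoglycan, went from 0.404, 0.47 and 0.687 CPM to 27.3, 27.9 and 25.2 CPM in 5637 and from 1.65, 0.971 and 1.68 CPM to 8.7, 8.62 and 8.53 CPM in OVCAR8. It rose by 5.67 in 5637 and 2.57 in OVCAR8, and this difference was called (-3.11, adjusted p = 3.7e-06). STC2 (ENSG00000113739.6, hg19 chr5:172741716-172756506), a secreted glycoprotein induced by amino acid and endoplasmic reticulum stress, measured 61.1, 59.5 and 55.3 CPM in 5637 parental and 524.3, 542.6 and 519.0 CPM in NR libraries. The level in OVCAR8 was 50.3, 56.8 and 54.3 CPM against 186.6, 169.8 and 175.6 CPM, with log2 rises of 3.17 and 1.72. CD74 (ENSG00000019582.10, hg19 chr5:149781200-149792492), the invariant chain that escorts MHC class II molecules, rose from 27.0, 30.9 and 31.0 CPM to 307.0, 293.4 and 359.1 CPM in 5637 and from 2.3, 3.66 and 2.64 CPM to 11.1, 10.3 and 10.3 CPM in OVCAR8. In no case did parental and NR libraries overlap.

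AFF3, a nuclear factor of the elongation complex family, rose by 2.08 in 5637 and by 2.22 in OVCAR8 (1.96 without OVCAR8 parental control replicate 2, whose 5.1 CPM lay below the 11 and 9.32 CPM of its fellow libraries). NAV3, a microtubule-binding protein, rose by 1.62 and 1.89 (1.56 without that library, which held 2.91 CPM against 9.45 and 6.76), and TMEM200A by 2.93 and 1.86 (1.66). In all 3 genes that library was the lowest of the OVCAR8 parental libraries. All 3 stayed called in OVCAR8 without it, which the rule that named them required.

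**Figure D2:**
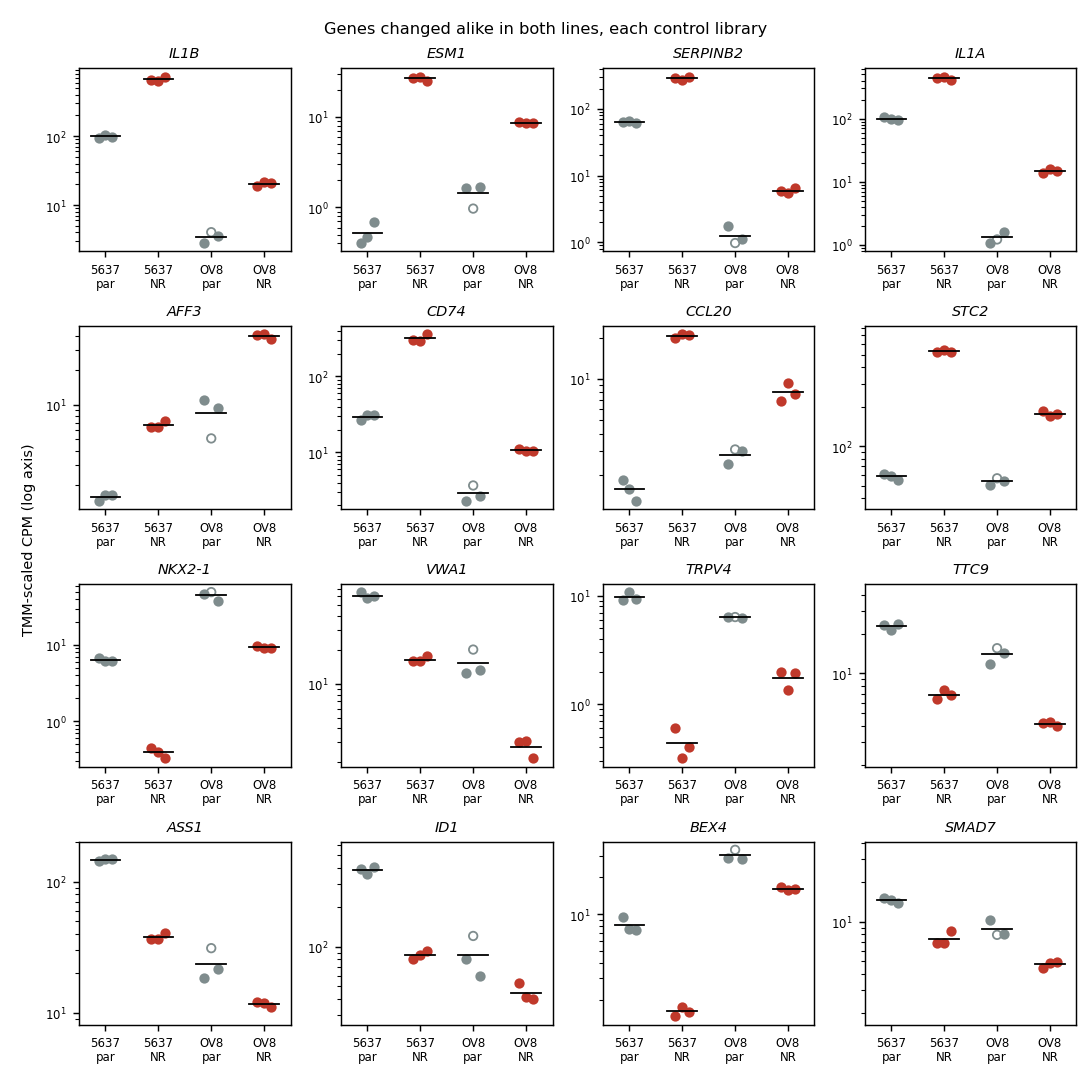
Each panel shows 1 gene in TMM-scaled CPM on a log axis in the 12 control libraries, parental in grey and NR in red, with a line at the group mean and OVCAR8 parental control replicate 2 as an open circle. The 8 genes in the upper rows lie higher and the 8 in the lower rows lie lower in NR libraries of both lines, with no overlap between parental and NR libraries. This lack of overlap was a condition of the rule that named them.

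ERK target genes also rose in both lines. Of 27 tested genes of ERK output and feedback (28 listed), 17 rose and 2 fell in 5637, and 13 rose and 2 fell in OVCAR8, with median log2 changes of 0.92 and 0.53. The OVCAR8 counts were 17 up and 2 down, with a median of 0.47, when parental control replicate 2 was left out. The 10 genes up in both were DUSP5, DUSP6, SPRY1, SPRY2, SPRY4, ETV4, ETV5, PHLDA1, FOSL1 and PLAUR. FOSL1 (ENSG00000175592.4, hg19 chr11:65659520-65668044), an AP-1 subunit stabilised by ERK, measured 396.5, 370.8 and 365.2 CPM in 5637 parental and 1523.1, 1346.7 and 1669.0 CPM in NR libraries. In OVCAR8 it measured 482.8, 467.0 and 441.9 CPM against 856.6, 886.4 and 839.9 CPM. The groups were apart in both lines, and the rise of 2.0 in 5637 exceeded that of 0.89 in OVCAR8 (difference -1.11 ± 0.13, edgeR adjusted p = 3.2e-05). PHLDA1 (ENSG00000139289.9) rose by 1.05 and 1.24, from 35.1, 33.9 and 32.8 CPM to 84.2, 77.6 and 79.1 CPM in OVCAR8. SPRY1 (ENSG00000164056.6), a Sprouty brake on the pathway, rose by 1.06 and 1.25, at under 2 CPM in every OVCAR8 library. Neither of the latter genes had a difference called between the lines (adjusted p = 0.17 and 0.64).

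The same list held genes that parted ways. DUSP4 (ENSG00000120875.4, hg19 chr8:29190581-29208185), a nuclear phosphatase that removes phosphate from ERK, measured 83.5, 76.3 and 71.7 CPM in 5637 parental and 417.5, 408.1 and 459.8 CPM in NR libraries. In OVCAR8 it fell from 2.44, 2.29 and 2.18 CPM to 0.547, 0.368 and 0.376 CPM. It thus rose by 2.47 in one line and fell by 2.38 in the other, at a low level there (difference -4.85, adjusted p = 3.2e-09). LIF, a cytokine of the interleukin-6 family, rose by 1.69 in 5637 and had a change of -0.55 in OVCAR8, where its NR libraries held 15.8 to 19.8 CPM and its parental libraries 23.6 to 29.0 CPM. That OVCAR8 call was lost with each line fitted alone (adjusted p = 0.096).

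Genes of glycolysis and the hypoxia response rose in both lines. Of 26 tested (28 listed), 18 rose and 4 fell in 5637, and 13 rose and 0 fell in OVCAR8, with medians of 0.96 and 0.33 (15 up, 0 down and a median of 0.35 in OVCAR8 without parental control replicate 2). That count of 0 is edgeR's, with 1 gene lower at an unadjusted p under 0.05, and DESeq2 called 1 lower and limma voom 0. Those up in both numbered 11: HK1, HK2, PFKFB3, PFKFB4, LDHA, PDK1, ADM, VEGFA, BNIP3, P4HA1 and ANGPTL4. HK2 (ENSG00000159399.5, hg19 chr2:75061108-75120486), the hexokinase that commits glucose to glycolysis, measured 48.3, 47.5 and 45.5 CPM in 5637 parental and 98.8, 98.4 and 94.2 CPM in NR libraries. Its OVCAR8 values were 17.8, 11.5 and 16.1 CPM against 33.3, 33.8 and 35.6 CPM. The rises were 1.04 and 1.17 on the log2 scale, with a difference of 0.13 that was not called (adjusted p = 0.64). ADM (ENSG00000148926.5), the vasodilator adrenomedullin, rose by 1.21 and 1.11, and its OVCAR8 libraries went from 64.2, 64.7 and 46.9 CPM to 139.2, 116.5 and 122.7 CPM. ANGPTL4 (ENSG00000167772.7), an inhibitor of lipoprotein lipase, rose by 3.74 in 5637, from at most 0.198 CPM to 1.91 to 2.34 CPM, and by 1.40 in OVCAR8. SLC2A1 (ENSG00000117394.15, hg19 chr1:43391052-43424530), the glucose transporter GLUT1, went the other way in 5637: it measured 268.4, 254.9 and 253.3 CPM in parental and 196.0, 192.3 and 220.0 CPM in NR libraries there. In OVCAR8 it rose from 44.1, 43.5 and 48.2 CPM to 77.8, 76.8 and 72.5 CPM. The fall of 0.35 and the rise of 0.74 differed by 1.09 ± 0.11 (adjusted p = 1.6e-05).

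Among genes with a mean of at least 5 CPM in both lines that fell in both, NKX2-1 ranked first by the smaller of its falls. NKX2-1 (ENSG00000136352.13, hg19 chr14:36985602-36990354), a homeobox factor of lung and thyroid development, measured 6.74, 6.21 and 6.11 CPM in 5637 parental and 0.451, 0.403 and 0.327 CPM in NR libraries. In OVCAR8 it fell from 46.7, 49.2 and 37.9 CPM to 9.64, 9.07 and 9.11 CPM. All NR libraries lay below all parental ones, with log2 changes of -4.01 ± 0.16 in 5637 and -2.26 ± 0.11 in OVCAR8 (difference 1.74, edgeR adjusted p = 4.4e-05). TRPV4 (ENSG00000111199.6, hg19 chr12:110220890-110271212), a calcium-permeable channel, fell from 9.22, 10.8 and 9.36 CPM to 0.61, 0.316 and 0.402 CPM in 5637. In OVCAR8 it fell from 6.43, 6.36 and 6.23 CPM to 1.98, 1.35 and 1.93 CPM, again without overlap. The fall was larger in 5637, -4.45 against -1.83 (adjusted p of the difference = 1.7e-05). TTC9 (ENSG00000133985.2, hg19 chr14:71108504-71142077) changed by -1.74 in 5637 (23.4, 21.6 and 23.8 CPM to 6.39, 7.42 and 6.79 CPM) and -1.76 in OVCAR8 (11.9, 15.6 and 14.3 CPM to 4.17, 4.25 and 3.94 CPM). VWA1 (ENSG00000179403.10), a matrix protein of basement membranes, fell by 1.89 in 5637 and by 2.48 in OVCAR8 (2.24 without OVCAR8 parental control replicate 2, whose 20.1 CPM lay above the 12.4 and 13.2 CPM of the other parental libraries).

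ASS1 (ENSG00000130707.13, hg19 chr9:133320316-133376661), the enzyme that makes argininosuccinate for arginine synthesis, measured 144.6, 147.9 and 148.4 CPM in 5637 parental and 36.8, 36.6 and 40.6 CPM in NR libraries. OVCAR8 libraries held 18.3, 31.1 and 21.6 CPM against 12.1, 11.9 and 11.1 CPM, a fall of 1.01 (0.77 without the parental library at 31.1 CPM). The 5637 fall of 1.95 was larger (difference 0.94, adjusted p = 0.0051). BEX4 fell by 2.35 and 0.90 and ARSI, an arylsulfatase, by 1.86 and 0.96, each with a smaller change in OVCAR8 (differences 1.45 and 0.90, edgeR adjusted p = 5.5e-05 and 0.004). LOXL1, a lysyl oxidase that crosslinks elastin, fell by 0.93 and 0.96.

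Keratins and junction genes fell together in 5637 and in part in OVCAR8. Of 16 tested keratins (18 listed), 2 rose and 11 fell in 5637, and 0 rose and 8 fell in OVCAR8 with edgeR. At an unadjusted p under 0.05, 2 were higher in OVCAR8, and 1 was called higher by DESeq2 and 0 by limma voom. Without OVCAR8 parental control replicate 2 the OVCAR8 count was 2 up and 9 down. Of the 16, 4 reached a mean of 5 CPM in both lines. KRT7 (ENSG00000135480.10, hg19 chr12:52626304-52645970), a keratin of simple epithelium, measured 2908.1, 2624.6 and 2666.4 CPM in 5637 parental and 1457.3, 1458.5 and 1629.4 CPM in NR libraries. In OVCAR8 it fell from 1164.8, 1676.9 and 1068.9 CPM to 446.1, 410.4 and 414.0 CPM. Here the fall was larger in OVCAR8, -1.62 against -0.85 (difference -0.77, adjusted p = 0.011; -0.55 without the parental library at 1676.9 CPM). KRT8 (ENSG00000170421.7, hg19 chr12:53290977-53343738), also of simple epithelium, fell by 0.61 in 5637 and by 0.83 in OVCAR8, where the same library held 3705.4 CPM against 2144.0 and 2219.8 CPM in the other parental and 1474.9 to 1599.3 CPM in the NR libraries. Without it the OVCAR8 fall was 0.53, and with each line fitted alone the call was lost (adjusted p = 0.13). KRT5 (ENSG00000186081.7, hg19 chr12:52908359-52914471), the basal keratin, went from 4057.9, 3967.5 and 3919.9 CPM to 535.7, 538.4 and 585.3 CPM in 5637. In OVCAR8 it was at trace level in all libraries, at most 0.407 CPM, so its call there rests on a few reads and was lost without OVCAR8 NR control replicate 3 (adjusted p = 0.061). KRT80 (ENSG00000167767.9, hg19 chr12:52562780-52585784) parted from its family: it rose from 200.2, 181.0 and 177.5 CPM to 255.9, 243.7 and 286.1 CPM in 5637 and fell from 109.4, 90.2 and 119.5 CPM to 56.4, 55.8 and 55.1 CPM in OVCAR8 (difference -1.42, adjusted p = 1.6e-05).

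Of 19 tested genes of desmosomes and cell junctions (21 listed), 2 rose and 13 fell in 5637, and 0 rose and 7 fell in OVCAR8, with 5 down in both and medians of -0.54 and -0.05 (9 down in OVCAR8 and 7 in both without replicate 2). The 0 rises in OVCAR8 were also 0 at an unadjusted p under 0.05 with edgeR, and 0 with DESeq2 and limma voom. CDH3 (ENSG00000062038.9, hg19 chr16:68670092-68756519), P-cadherin, fell from 359.1, 368.1 and 353.1 CPM to 244.9, 238.4 and 260.8 CPM in 5637 and from 4.64, 5.35 and 5.51 CPM to 2.85, 2.9 and 2.61 CPM in OVCAR8. The groups did not overlap, and the changes were -0.54 and -0.89, with a difference that was not called (adjusted p = 0.054, and 0.024 without OVCAR8 parental control replicate 2). CLDN1 (ENSG00000163347.5, hg19 chr3:190023490-190040264), a claudin of tight junctions, was the junction gene that went opposite ways. It rose from 231.4, 249.9 and 242.0 CPM to 477.6, 488.6 and 448.4 CPM in 5637 and fell from 34.3, 27.1 and 34.2 CPM to 10.4, 9.81 and 10.7 CPM in OVCAR8. The rise of 0.97 and the fall of 1.63 differed by -2.60 ± 0.14 (adjusted p = 4.6e-08).

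Of 29 tested TGF-beta and BMP genes (30 listed), 6 rose and 13 fell in 5637, and 5 rose and 6 fell in OVCAR8, with medians of -0.20 and -0.19. Of all genes tested, 22.1% rose and 19.5% fell in 5637, and 3.61% and 3.6% in OVCAR8. Leaving out OVCAR8 parental control replicate 2 gave 5 rises and 12 falls in OVCAR8, and 8 instead of 3 genes down in both lines. The activin subunits INHBA and INHBB rose in both lines, and the BMP-responsive genes ID1, SMAD6 and SMAD7 fell in both. ID2, a relative of ID1, fell by 1.47 in 5637 and was not called in OVCAR8 (0.77, adjusted p = 0.19). INHBA (ENSG00000122641.9, hg19 chr7:41724712-41742706) rose from 154.1, 155.3 and 140.1 CPM to 556.0, 564.3 and 495.3 CPM in 5637 and from 49.0, 31.6 and 45.4 CPM to 75.6, 78.9 and 81.8 CPM in OVCAR8, by 1.85 and 0.91 (0.73 without the parental library at 31.6 CPM). INHBB (ENSG00000163083.5) rose by 4.68 in 5637, from under 1 CPM to 18.1 to 18.6 CPM, and by 0.76 in OVCAR8. The rise of either gene was larger in 5637 (differences -0.94 and -3.92, edgeR adjusted p = 0.0024 and 2.6e-09). SMAD7 (ENSG00000101665.4, hg19 chr18:46446223-46477081), an inhibitory SMAD, fell from 15.2, 14.5 and 13.8 CPM to 6.87, 6.84 and 8.42 CPM in 5637 and from 10.2, 7.92 and 7.98 CPM to 4.4, 4.86 and 4.89 CPM in OVCAR8, by 0.97 and 0.89. ID1 (ENSG00000125968.7, hg19 chr20:30193086-30194318), a dominant-negative partner of helix-loop-helix factors, fell from 393.7, 362.6 and 409.2 CPM to 80.5, 86.3 and 93.4 CPM in 5637. The level in OVCAR8 was 80.2, 120.9 and 60.0 CPM in parental and 53.1, 41.1 and 39.6 CPM in NR libraries, a change of -0.96 that was -0.65 (adjusted p = 0.00023) without the parental library at 120.9 CPM. The OVCAR8 call of ID1 was lost with each line fitted alone (adjusted p = 0.13) and without OVCAR8 NR control replicate 2 or 3 (0.056 and 0.06). SMAD6 fell by 1.77 in 5637 and had a change of -1.21 at about 1 CPM in OVCAR8, lost under the same settings (0.15, 0.057 and 0.079).

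GREM1 and FST, secreted antagonists on that list, fell in 5637 and rose in OVCAR8. Another antagonist, NOG, rose by 1.59 in 5637 and was not called in OVCAR8 (0.04, adjusted p = 0.94). GREM1 (ENSG00000166923.6, hg19 chr15:33010175-33026870), a BMP antagonist, fell from 2.15, 1.88 and 1.85 CPM to 0.106, 0.23 and 0.176 CPM in 5637 and rose from 3.48, 2.51 and 2.9 CPM to 59.0, 52.6 and 57.0 CPM in OVCAR8. Its log2 changes of -3.51 and 4.24 differed by 7.74 ± 0.26 (edgeR adjusted p = 1.3e-09). FST (ENSG00000134363.7, hg19 chr5:52776239-52782964), follistatin, which binds activins, fell from 162.7, 173.3 and 164.2 CPM to 40, 41.8 and 37.9 CPM in 5637. In OVCAR8 it was low, and rose from 0.348, 0.658 and 0.647 CPM to 1.85, 1.68 and 2.21 CPM. TGFB2 (ENSG00000092969.7), the ligand, moved the other way, by 0.52 in 5637 and -0.96 in OVCAR8, where it went from 24.0, 16.7 and 22.8 CPM to 10.3, 12.1 and 10.4 CPM. The differences of both genes were called (3.89 and -1.48, adjusted p = 8.9e-08 and 5e-05).

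Among the other genes up in 5637 and down in OVCAR8 were growth factor and matrix genes. PDGFB (ENSG00000100311.12, hg19 chr22:39619364-39640756), the platelet-derived growth factor B chain, measured 14.4, 14.5 and 13.9 CPM in 5637 parental and 69.6, 67.9 and 74.1 CPM in NR libraries. In OVCAR8 it measured 10.2, 10.7 and 10.2 CPM against 3.28, 3.84 and 3.16 CPM. From similar parental levels the NR groups moved apart, by 2.31 and -1.61 on the log2 scale (difference -3.91 ± 0.13, edgeR adjusted p = 1.3e-09). ENG (ENSG00000106991.9, hg19 chr9:130577291-130617035), endoglin, a co-receptor for TGF-beta and BMP9, had parental levels of 46.8, 46.6 and 46.1 CPM in 5637 and 50.8, 47.3 and 48.2 CPM in OVCAR8. In NR libraries it stood at 108.0, 107.7 and 134.2 CPM in 5637 and at 18.1, 17.4 and 16.2 CPM in OVCAR8, so that groups alike in parental cells no longer overlapped (changes 1.33 and -1.5). FHL1 (ENSG00000022267.12, hg19 chrX:135229559-135293518), a LIM-domain protein, rose from 42.9, 45.6 and 45.0 CPM to 111.4, 100.4 and 113.4 CPM in 5637 and fell from 150.8, 156.6 and 151.0 CPM to 66.4, 66.5 and 64.0 CPM in OVCAR8. TINAGL1 (ENSG00000142910.11, hg19 chr1:32042116-32053288), a secreted matrix protein, rose from 642.9, 606.9 and 630.9 CPM to 1418.3, 1464.3 and 1605.5 CPM and fell from 61.0, 54.8 and 51.0 CPM to 16.5, 14.9 and 14.7 CPM.

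APOE (ENSG00000130203.5, hg19 chr19:45409011-45412650), the lipid-carrying apolipoprotein, rose from 1.14, 1.04 and 0.9 CPM to 6.34, 6.07 and 6.89 CPM in 5637. In OVCAR8 it fell from 8.17, 23.6 and 10.6 CPM to 2.96, 2.25 and 2.01 CPM, by 2.53, or by 1.95 without the parental library at 23.6 CPM, and no libraries overlapped. PNMA2 (ENSG00000240694.4), a paraneoplastic antigen, rose by 4.48 in 5637, from 2.02, 1.58 and 1.07 CPM to 36.2, 36.6 and 31.6 CPM, and fell by 1.39 in OVCAR8. IGFN1 rose by 6.47 from at most 0.177 CPM and fell by 3.29, and RLTPR, an actin regulator, rose by 1.55 and fell by 1.78. The differences of these 4 genes ran from -9.76 (IGFN1) to -3.32 (RLTPR), with edgeR adjusted p of at most 6.2e-06. Both PAX8 and WT1, transcription factors of the Müllerian lineage, showed this pattern. PAX8 (ENSG00000125618.12, hg19 chr2:113973574-114036527) rose from 12.4, 12.2 and 12.1 CPM to 45.5, 39.6 and 49.1 CPM in 5637 and fell from 152.1, 135.8 and 149.3 CPM to 73.8, 83.9 and 73.5 CPM in OVCAR8. WT1 (ENSG00000184937.8, hg19 chr11:32409321-32457176) rose from 6.82, 7.57 and 7.58 CPM to 30.7, 32.6 and 32.7 CPM and fell from 4.18, 3.51 and 3.5 CPM to 1.14, 1.31 and 1.38 CPM. Their differences were -2.79 and -3.68 (adjusted p = 2.2e-08 and 1.1e-08), while the 17 tested Müllerian genes (20 listed) as a group had medians of -0.26 and -0.34.

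Genes down in 5637 and up in OVCAR8 included guidance receptors and matrix proteins. NRP2 (ENSG00000118257.12, hg19 chr2:206546714-206662857), a co-receptor for semaphorins and VEGF-C, measured 87.2, 85.7 and 84.2 CPM in 5637 parental and 27.8, 27.9 and 26.4 CPM in NR libraries. Its OVCAR8 values were 2.9, 2.44 and 2.95 CPM against 11.3, 12.6 and 10.3 CPM. The fall of 1.65 and the rise of 2.03 differed by 3.68 ± 0.14 (edgeR adjusted p = 3.2e-09). Its relative NRP1 (ENSG00000099250.13, hg19 chr10:33466420-33625190) did not share this pattern, and rose in both lines, from 57.7, 53.8 and 49.8 CPM to 83.9, 80.5 and 83.1 CPM and from 17.8, 17.4 and 20.1 CPM to 30.6, 30.2 and 33.0 CPM (difference 0.14, adjusted p = 0.43). NOTCH3 (ENSG00000074181.4, hg19 chr19:15270444-15311792), a Notch receptor, fell from 93.4, 96.9 and 98.9 CPM to 21.6, 23.5 and 26.9 CPM in 5637. OVCAR8 libraries held 27.3, 18.5 and 29.7 CPM in parental and 46.7, 44.6 and 41.5 CPM in NR libraries, a rise of 0.81 (0.63 without the parental library at 18.5 CPM) that was lost with each line fitted alone (adjusted p = 0.073). HES1, a transcriptional target of Notch, fell by 0.76 in 5637 and 1.08 in OVCAR8, at 1.88 to 6.48 CPM in the latter and with that call likewise lost (0.082). Of the 29 tested genes of the Notch pathway and guidance (31 listed), 5 rose and 11 fell in 5637 and 4 rose and 5 fell in OVCAR8 (8 and 5 without replicate 2). Those down in 5637 and up in OVCAR8 numbered 2, and 4 without that library. Over all genes tested, the shares up and down were 22.1% and 19.5% in 5637 and 3.61% and 3.6% in OVCAR8.

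EGR1 (ENSG00000120738.7, hg19 chr5:137801179-137805004), an immediate early factor induced by ERK, measured 276.5, 253.3 and 156.4 CPM in 5637 parental and 42.8, 40.3 and 61.9 CPM in NR libraries. The level in OVCAR8 was 8.78, 5.26 and 7.88 CPM against 14.3, 27.5 and 25.8 CPM, so the replicates of either line were spread but did not overlap. Its changes of -2.24 and 1.61 were opposite to one another, and the 5637 fall also ran against the rise of most ERK targets (difference 3.85 ± 0.40, edgeR adjusted p = 1.5e-05). CTGF (ENSG00000118523.5, hg19 chr6:132269316-132272513), a matrix protein and a target of YAP and TGF-beta, fell from 34.2, 32.6 and 22.6 CPM to 14.4, 13.4 and 15.6 CPM in 5637 and rose from 75.1, 78.0 and 74.1 CPM to 232.0, 231.8 and 236.0 CPM in OVCAR8 (difference 2.66, adjusted p = 4.3e-07). VCAN (ENSG00000038427.11), the large proteoglycan versican, went from 6.24, 6.63 and 5.9 CPM to 3.23, 2.82 and 2.01 CPM in 5637. In OVCAR8 it rose from 20.6, 8.27 and 21.0 CPM to 54.3, 56.7 and 56.2 CPM, by 1.74, or by 1.42 without the parental library at 8.27 CPM.

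LRRC8B, a subunit of the volume-regulated anion channel, TMCC3 and SLC2A12, a glucose transporter, fell by 1.11, 1.23 and 1.34 in 5637 and rose by 1.07, 0.91 and 0.84 in OVCAR8, and VWDE fell by 1.30 and rose by 0.96. Replicate 2 was the lowest OVCAR8 parental library for all 4, and without it the OVCAR8 rises were 0.76, 0.65, 0.68 and 0.85, each still called with edgeR (highest adjusted p 0.0015). With each line fitted alone, the OVCAR8 calls of LRRC8B, TMCC3 and SLC2A12 were lost (adjusted p = 0.16, 0.18 and 0.11). The OVCAR8 call of LRRC8B was also lost without OVCAR8 NR control replicate 1, 2 or 3 (0.057, 0.056 and 0.06), and that of TMCC3 without replicate 1 or 2 (0.064 and 0.092) and with a replicate block (0.061). The difference between lines stayed called for all 4 under every setting tried.

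**Figure D3:**
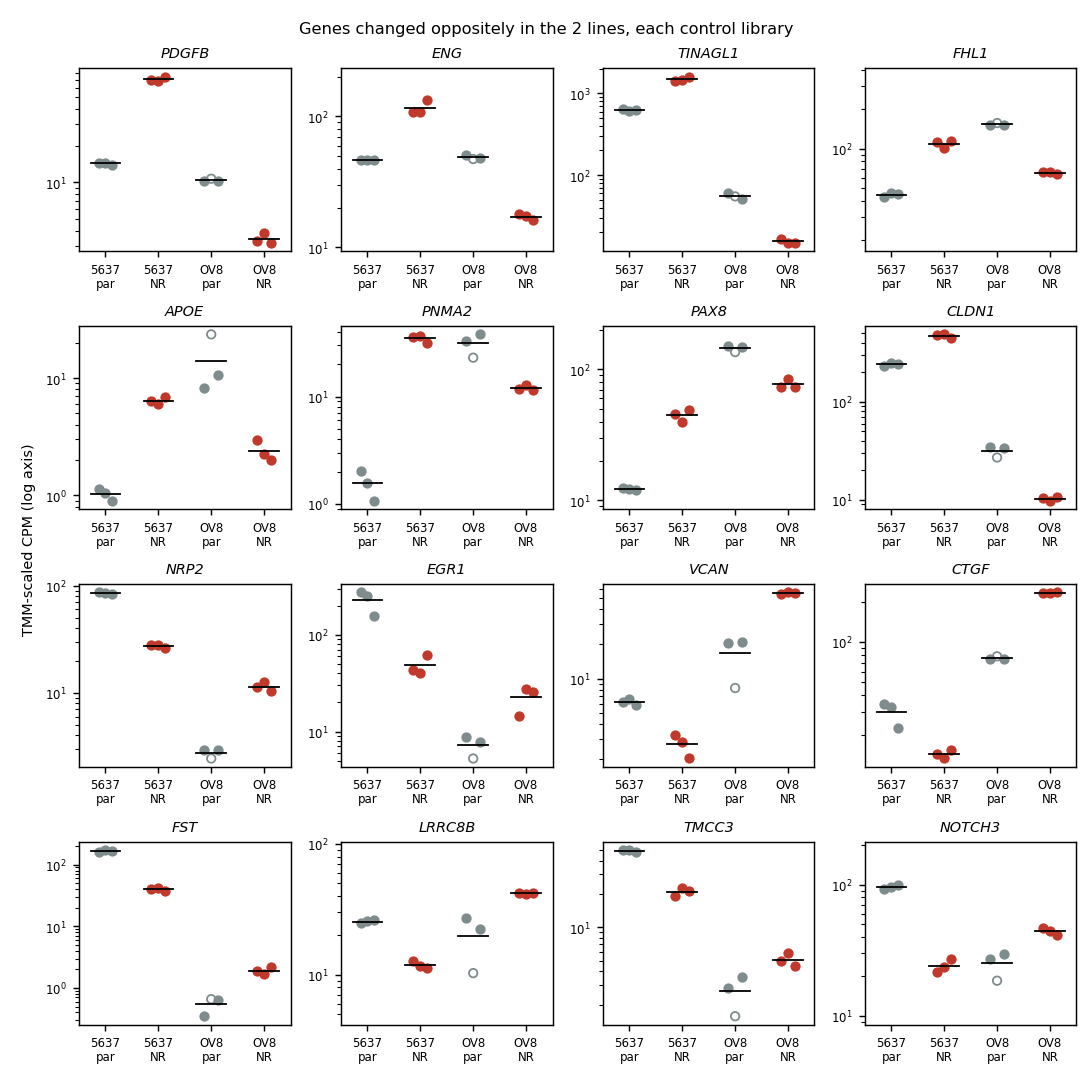
Each panel shows 1 gene in TMM-scaled CPM on a log axis in the 12 control libraries, with parental in grey, NR in red, a line at the group mean and OVCAR8 parental control replicate 2 as an open circle. In the upper 8 panels NR libraries lie higher in 5637 and lower in OVCAR8, and in the lower 8 panels the order is turned round.

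Integrin and laminin genes moved in both directions. Of 21 tested integrins and laminins (23 listed), 10 rose and 5 fell in 5637 and 1 rose and 5 fell in OVCAR8 (5 and 7 without OVCAR8 parental control replicate 2). The shares of all genes up and down were 22.1% and 19.5% in 5637 and 3.61% and 3.6% in OVCAR8. ITGA6 (ENSG00000091409.10, hg19 chr2:173292082-173371181), a laminin-binding integrin chain, fell from 1377.5, 1347.6 and 1276.6 CPM to 930.5, 1033.5 and 871.2 CPM in 5637 and rose from 181.4, 119.9 and 180.0 CPM to 258.6, 258.3 and 276.2 CPM in OVCAR8 (difference 1.22). The OVCAR8 rise of 0.72 was 0.54 without replicate 2, the lowest parental library, and was lost with each line fitted alone (adjusted p = 0.088). ITGA5 (ENSG00000161638.6), the fibronectin receptor chain, fell by 2.87 in 5637, from 42.5, 38.4 and 39.2 CPM to 5.22, 5.38 and 5.86 CPM. In OVCAR8 its change of 0.31 was not called with all libraries (adjusted p = 0.055) and was 0.22 and called without replicate 2 (0.0082).

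Of 28 genes of mesenchymal transition, all tested, 14 rose and 6 fell in 5637 and 6 rose and 3 fell in OVCAR8, with 3 up in both. When OVCAR8 parental control replicate 2 was left out, these became 10 and 4 in OVCAR8, with 7 up in both. With all libraries, 22.1% of all genes rose and 19.5% fell in 5637, and 3.61% and 3.6% in OVCAR8. TGFBI (ENSG00000120708.12, hg19 chr5:135364584-135399507), a matrix protein named for its induction by TGF-beta, fell from 934.8, 895.5 and 868.5 CPM to 614.4, 622.0 and 649.4 CPM in 5637 and from 1238.1, 1207.5 and 1219.1 CPM to 384.7, 414.4 and 413.5 CPM in OVCAR8. The groups did not overlap in either line, and the fall was larger in OVCAR8 (difference -1.08, edgeR adjusted p = 7.1e-06).

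EGFR and ERBB2, receptors that neratinib binds, each moved by less than 1 on the log2 scale in both lines. EGFR (ENSG00000146648.11, hg19 chr7:55086714-55324313) measured 658.9, 685.8 and 662.9 CPM in 5637 parental and 847.5, 786.3 and 789.8 CPM in NR libraries. In OVCAR8 it measured 313.2, 128.7 and 295.7 CPM against 319.5, 327.2 and 323.5 CPM, the low value being replicate 2. Neither effect was called with all libraries (0.27 and 0.40, edgeR adjusted p = 0.38 and 0.32), and without that library the 5637 rise of 0.27 was called (1.7e-05) and the OVCAR8 change was 0.08 (0.32). ERBB2 (ENSG00000141736.9, hg19 chr17:37844167-37886679) fell from 278.9, 268.5 and 262.2 CPM to 159.4, 147.3 and 166.5 CPM in 5637. Its OVCAR8 values were 130.6, 135.3 and 135.0 CPM against 115.4, 111.8 and 110.6 CPM, a change of -0.25 that was not called with all libraries (0.064) and was called without replicate 2 (0.0038). The fall was larger in 5637 by 0.53 ± 0.10 (adjusted p = 0.0022). ERBB3, the kinase-impaired partner of ERBB2, fell by 0.84 and 0.54, with no called difference (0.075, and 0.023 without replicate 2), and its OVCAR8 call was lost with each line fitted alone (0.052). ERRFI1 (ENSG00000116285.8), which binds and inhibits EGFR, rose in both lines, from 156.3, 152.4 and 139.6 CPM to 252.9, 263.1 and 253.6 CPM and from 93.3, 76.1 and 99.1 CPM to 146.2, 146.0 and 156.3 CPM (difference -0.04, adjusted p = 0.89). RRAGD, a Rag GTPase that brings mTORC1 to lysosomes, was called oppositely in the lines, as 1 of 32 tested mTORC1 genes (33 listed) with all libraries and of 2 without replicate 2, rising by 2.61 in 5637 and falling by 0.84 in OVCAR8 (difference -3.46, adjusted p = 6.8e-08).

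Some of the largest changes were called in 1 line and differed from the other by the test of the difference. In 5637, KISS1 (ENSG00000170498.7, hg19 chr1:204159469-204165614), the metastasis suppressor that encodes kisspeptin, went from 0.379, 0.272 and 0.118 CPM to 64.0, 66.6 and 77.5 CPM. OVCAR8 libraries held 22.2, 46.8 and 21.4 CPM in parental and 38.6, 29.8 and 29.7 CPM in NR libraries, overlapping through replicate 2, and without that library its OVCAR8 change was a called rise of 0.59 (edgeR adjusted p = 0.00076). GABBR2, a GABA-B receptor subunit, and PCDH19, a protocadherin, rose by 6.51 and 6.09 in 5637, from at most 0.253 CPM to 18.3 to 19.5 CPM and 9.61 to 11.2 CPM. APBA2 and ALPK2 rose from at most 0.0758 and 0.0247 CPM, which is 3 counts or fewer in each parental library, to 3.87 to 4.8 CPM and 0.553 to 0.981 CPM, so that the size of their fitted changes depends on the prior count. All 4 had OVCAR8 changes between -0.13 and 0.24 that were not called. The rule that named genes for 1 line required this: no call and an absolute log2 change under 0.25 in the other line. APBA2 and ALPK2 were present in OVCAR8 at 41.2 to 49.9 CPM and 10.3 to 12.8 CPM. PLXDC2 (ENSG00000120594.12, hg19 chr10:20105168-20578785), a transmembrane protein, measured 49.3, 48.2 and 45.7 CPM in 5637 parental libraries and had no read in any 5637 NR library, at least 594-fold lower with a floor of 3 counts per library. It stayed at 2.22 to 3.19 CPM in all OVCAR8 libraries. PNMAL1, ZNF677, SPINK5 and FAM109B also had no read in the 5637 NR libraries, at least 63.2-fold, 45.5-fold, 14.9-fold and 13.9-fold lower, and remained in OVCAR8 NR cells at 33.9, 13, 22.5 and 5.02 CPM on average. Without OVCAR8 parental control replicate 2, PNMAL1 and ZNF677 were called lower in OVCAR8 as well (-0.24 and -0.29, adjusted p = 0.039 and 0.049).

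The 5 largest OVCAR8 rises named by the rule for genes not called in 5637 were those of FGF5, a growth factor, PDPN, the mucin-like podoplanin, PTPRB, a receptor phosphatase, FMN1, an actin nucleator, and BHLHE41, a clock repressor. FGF5 (ENSG00000138675.12, hg19 chr4:81187753-81257834) rose from 39.6, 23.5 and 33.5 CPM to 123.3, 123.1 and 125.4 CPM in OVCAR8, by 1.94 (1.76 without replicate 2), and stayed under 1 CPM in all 5637 libraries. PDPN (ENSG00000162493.12, hg19 chr1:13909960-13944452) rose from 15.7, 20.8 and 15.7 CPM to 47.2, 45.7 and 46.5 CPM in OVCAR8, against 1.21 to 1.91 CPM in 5637. PTPRB rose by 1.56 (1.28 without replicate 2, at 6.54 CPM the lowest parental library), FMN1 by 1.67 and BHLHE41 by 2.86, and the differences of all 5 genes from 5637 ran from 1.65 to 2.78 (highest edgeR adjusted p 0.002). TNNT2 (ENSG00000118194.14), cardiac troponin T, fell from 5.55, 12.5 and 6.52 CPM to 0.661, 0.531 and 0.728 CPM in OVCAR8 and stayed under 0.5 CPM in 5637. Its OVCAR8 change was -3.64, and -3.21 without replicate 2, the highest parental library. SLPI, a protease inhibitor of epithelial fluids, fell from 0.929, 2.6 and 0.958 CPM to at most 0.163 CPM in OVCAR8 while 5637 held 36.5 to 47.4 CPM. That change was -3.55, and -2.95 without replicate 2. MPZL3 and RIPPLY3 were also called lower in OVCAR8 NR cells, from trace levels of at most 0.488 CPM in its parental libraries to no read in its NR libraries, at least 3.14-fold and 2.42-fold lower with a floor of 3 counts per library.

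**Figure D4:**
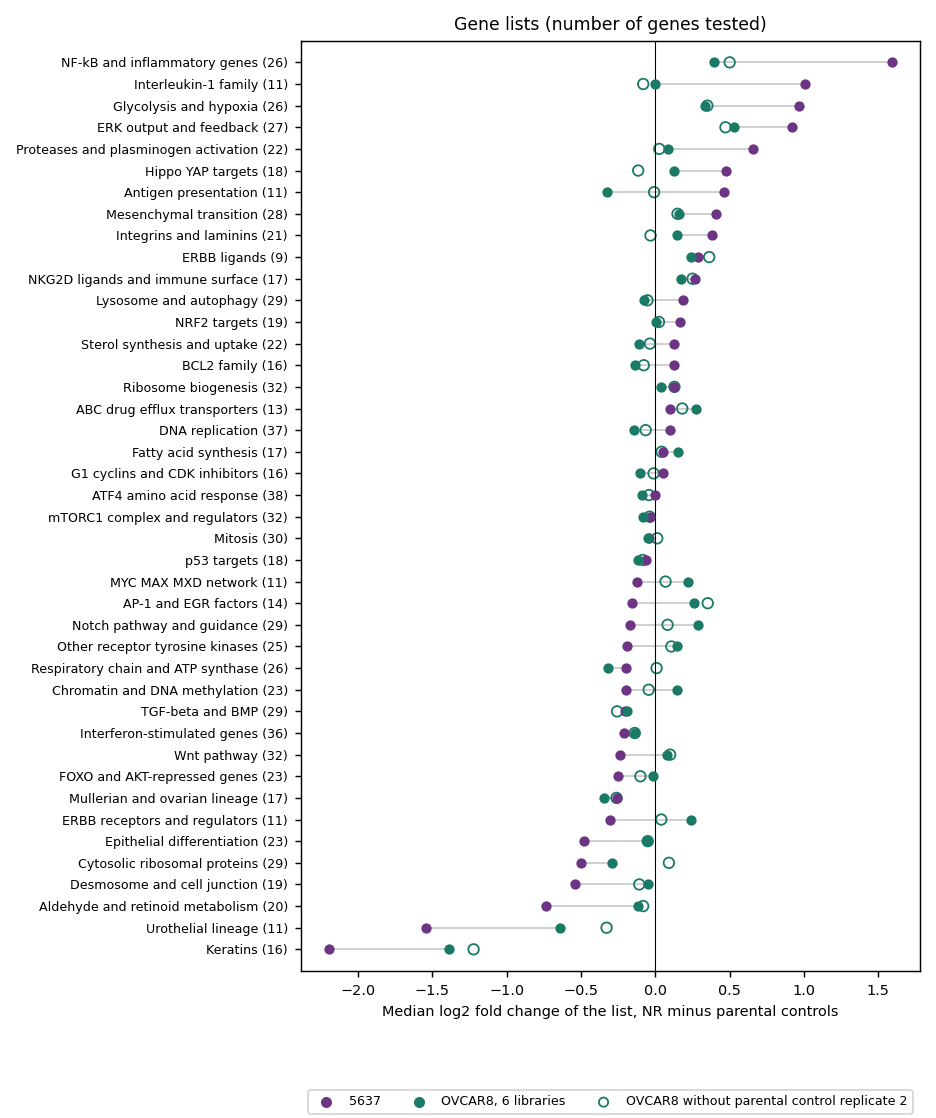
Points give the median log2 fold change (NR minus parental, controls) of each gene list, with 5637 in purple, OVCAR8 in filled green and OVCAR8 without parental control replicate 2 as open green circles, and the number of genes tested in parentheses. Inflammatory, hypoxia and ERK lists lie to the right in both lines and keratins to the left in both, while the open and filled circles of ribosomal proteins and the respiratory chain lie on different sides of 0.

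Values of growth and housekeeping lists depended on OVCAR8 parental control replicate 2. Of 29 tested cytosolic ribosomal proteins (32 listed), 12 fell in 5637 (median -0.50) and 0 rose, the latter also at an unadjusted p under 0.05 with edgeR and with DESeq2 and limma voom. In OVCAR8, 0 were called by these 3 tools and 1 was lower at an unadjusted p under 0.05. Their OVCAR8 median of -0.29 became 0.09, with 4 genes up, without that library. The effect in OVCAR8 was called higher than in 5637 for 1 of them with all libraries and for 23 without. Of 26 respiratory chain genes, all tested, 8 fell in 5637, and the difference was called higher for 1 and for 15 without that library. Mitosis genes, 30 of 30 tested, had medians of -0.04 and -0.05, and 6 rose and 9 fell in 5637 and 1 fell in OVCAR8 (1 up and 1 down without that library). Among all genes tested, 22.1% rose and 19.5% fell in 5637, and 3.61% and 3.6% in OVCAR8. The difference was called higher for 12.1% of all genes with all libraries and for 20.2% without OVCAR8 parental control replicate 2.

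The same genes were read in the neratinib libraries, whose values did not enter the calls without drug. In a separate edgeR fit of the 12 neratinib libraries (19602 genes), 28.1% of genes were up and 28.4% down in 5637 NR against parental cells on drug, and 21.9% and 21.7% in OVCAR8. Of the 314 genes up in both lines without drug that were tested on drug, 207 (65.9%) were again called up in both, against 10.9% of the 18696 genes tested in both fits. Of the 222 down in both, 160 (72.1%) were again down in both, against 9.43%. Of the 182 up in 5637 and down in OVCAR8, 118 (64.8%) kept both calls, against 4.91%, and of the 119 with the reverse pattern 57 (47.9%) did, against 4.15%. The doses differed between lines, and the parental cells were on drug as well, so these effects are not repeats of the untreated ones.

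Among single genes on neratinib, IL1B was higher in NR cells of both lines (2.54 and 1.42, edgeR adjusted p = 1.6e-14 and 8.3e-10), and so were CCL20, IL1A, CD74 and SERPINB2. NKX2-1 was lower in both (-4.67 and -1.88). PDGFB, ENG, FHL1, PAX8 and CLDN1 kept both opposite calls on drug, as did GREM1 (-3.86 and 4.95) and NRP2 (-1.39 and 1.77). Others did not. IL6 and CXCL1 were higher in 5637 NR cells (4.50 and 2.11) and lower in OVCAR8 NR cells (-0.63 and -0.78, adjusted p = 0.00035 and 7.6e-05), so that 2 genes alike off drug were opposite on drug. CXCL2 was 1.09 higher in 5637 and was not called in OVCAR8 (-0.05, adjusted p = 0.79). FST was no longer called in 5637 (0.07, adjusted p = 0.57), nor was CTGF (-0.14, 0.13) or EGR1 (-0.38, 0.31), while all 3 were higher in OVCAR8 NR cells (2.61, 1.88 and 0.56).

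The 5637 effect was uneven between chromosomes and the OVCAR8 effect much less so. The median log2 change in 5637 was 0.67 over 218 genes of chromosome 21, of which 56% were called up against 22.1% of all genes, and -0.41 over 663 genes of chromosome 15, of which 43.9% were called down against 19.5%. Chromosomes 12 and 19 had medians of -0.33 and -0.29, and chromosomes 11 and 8 of 0.28 and 0.26. In OVCAR8 the chromosome with the highest median was 10, with 0.15 (0.12 without replicate 2) and 10.7% of 723 genes called up against 3.61%, and the lowest was 14 with -0.09. Over windows of 25 neighbouring tested genes, the highest OVCAR8 median was 0.88 at hg19 chr5:39105338-43515247 (FYB to C5orf34), where 21 of 25 genes lay above 0 and 12 were called (16 without replicate 2), and where 5637 had a median of 0.32. In 5637 the window hg19 chr21:46225532-47552763 (SUMO3 to COL6A2) had a median of 1.37, with 25 of 25 genes above 0 and 22 called, against -0.26 in OVCAR8. The lowest OVCAR8 window was hg19 chr12:51785101-53346685 (SLC4A8 to KRT18), which holds the keratins named above, with a median of -0.63 and of -0.57 in 5637.

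**Figure D5:**
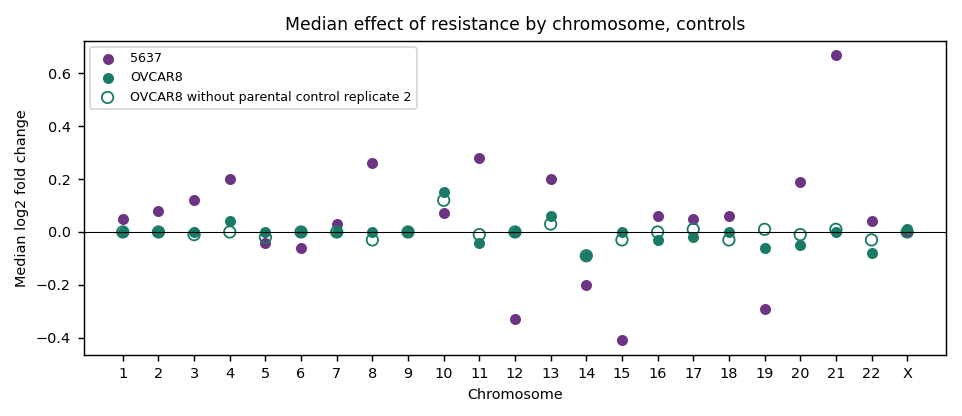
The median log2 fold change (NR minus parental, controls) over the tested genes of each chromosome is plotted for 5637 in purple, OVCAR8 in filled green and OVCAR8 without parental control replicate 2 in open green circles. The 5637 medians run from -0.41 on chromosome 15 to 0.67 on chromosome 21, and the OVCAR8 medians from -0.09 to 0.15.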

How the data were processed

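The libraries were stranded TruSeq preparations of poly(A) RNA, read from both ends on a HiSeq3000 instrument, per the labels. The authors deposited raw whole-number read counts per gene for 39786 genes with hg19 coordinates. The submitters' processing notes name hg19, the aligner STAR 2.5.3a, the counter featureCounts 1.15.2, DESeq2 1.18.1 and FastQC. The strand setting of the counting is not given in the sources used here, so a gene and an overlapping antisense gene cannot be told apart, and genes with near-identical copies, such as those of the basal keratins, are uncertain.

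The 12 control libraries were fitted together with edgeR 4.0.16 in R 4.3.3: filterByExpr, TMM scaling, 4 group means, 8 residual degrees of freedom and the quasi-likelihood F-test. Benjamini-Hochberg adjustment covered every tested gene, with a threshold of 0.05. The 3 contrasts were NR minus parental in 5637, the same in OVCAR8, and the second minus the first. Errors beside log2 changes are standard errors from the fit of all 12 libraries, in which both lines share each gene's dispersion. The spread of OVCAR8 parental control replicate 2 therefore also entered the errors and p-values of 5637. Printed CPM values use library sizes multiplied by TMM factors. Depth limits precision: the lowest floor of 3 counts was 0.0683 CPM and the highest 0.123 CPM. On simulated counts of 18373 genes, the difference contrast found 4.48% of simulated 1.5-fold changes, 46.3% of those at 2-fold and 89.4% of those at 4-fold, and made 3 false calls. There 67, 67 and 66 genes were changed by these folds, in the OVCAR8 NR group alone, and all others were left unchanged.

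Genes were named by rule. The 10 largest up or down in both lines, by the smaller change, were called with and without OVCAR8 parental control replicate 2, without overlap. The 8 largest of each opposite set, by the same measure, had a called difference. Both kinds had a mean of at least 5 CPM in each line. The 5 largest in each direction for 1 line had no overlap there and a called difference with and without that library. They reached 5 CPM in at least 1 group. In the other line they had no call and an absolute log2 change under 0.25. EGFR, ERBB2 and ERBB3 and members of 49 gene lists were added. Members, lists and examples were chosen with earlier results of these data known, and list examples after their values were seen. A few genes that the rule or the lists name are not reported here. DESeq2 1.42.0, limma 3.58.1 voom, other scalings and filters, each line alone, all 24 libraries, a replicate block and leaving out each library were alternatives. Replicate numbers did not pair the libraries. Promoter windows, 300 bases long, are from RefSeq on GRCh38.p14 and were matched by symbol for 11865 of 18767 tested genes.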

Additional observations from a re-analysis of the deposited data

Results flagged for a closer look

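The results below were singled out because the NR effect without drug differed between the 2 lines by a test of the difference itself, the contrast of the OVCAR8 effect minus the 5637 effect in edgeR. Each number is that difference on the log2 scale, so a negative value means a higher NR effect in 5637. All differences named here were called under every alternative tried that gives this contrast, and their causes were not tested.

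Among genes up in both lines, the rise was larger in 5637 for ESM1 -3.11, CD74 -1.53, TMEM200A -1.08, STC2 -1.45, CCL20 -2.21, CXCL1 -1.26, IL6 -4.66, FOSL1 -1.11, ANGPTL4 -2.34, INHBA -0.94 and INHBB -3.92. It was larger in OVCAR8 for IL1A 1.37. Among genes down in both lines, the fall was larger in 5637 for NKX2-1 1.74, TRPV4 2.62, ASS1 0.94, ID1 1.20, ARSI 0.90 and BEX4 1.45, and larger in OVCAR8 for KRT7 -0.77 and TGFBI -1.08.

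Of genes up in 5637 and down in OVCAR8, the differences were IGFN1 -9.76, APOE -5.18, PDGFB -3.91, RLTPR -3.32, PNMA2 -5.88, ENG -2.83, TINAGL1 -3.11, FHL1 -2.50, DUSP4 -4.85, LIF -2.24, KRT80 -1.42, CLDN1 -2.60, TGFB2 -1.48, WT1 -3.68, PAX8 -2.79 and RRAGD -3.46. Of genes down in 5637 and up in OVCAR8 they were NRP2 3.68, EGR1 3.85, VCAN 2.96, LRRC8B 2.18, CTGF 2.66, VWDE 2.26, TMCC3 2.14, SLC2A12 2.18, SLC2A1 1.09, GREM1 7.74, FST 3.89, NOTCH3 2.82 and ITGA6 1.22. GREM1 lies beside FMN1 on chromosome 15, and both rose in OVCAR8 while only GREM1 of the pair was called in 5637.

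Of genes called in 5637 alone, the differences were KISS1 -7.95, APBA2 -6.72, GABBR2 -6.64, PCDH19 -5.85, ALPK2 -5.29, PLXDC2 14.00, PNMAL1 10.39, ZNF677 10.06, SPINK5 8.53, FAM109B 8.33 and ITGA5 3.17, and ERBB2 0.53. For PLXDC2, PNMAL1, ZNF677, SPINK5 and FAM109B the 5637 NR libraries had no read, so that the fitted difference depends on the prior count and gives no bound, and APBA2 and ALPK2, with at most 3 counts in each 5637 parental library, share that limit. Called in OVCAR8 as well without parental control replicate 2 were KISS1, ITGA5, ERBB2, PNMAL1 and ZNF677. Of genes called in OVCAR8 alone, they were BHLHE41 2.78, FGF5 1.86, FMN1 1.69, PTPRB 1.70, PDPN 1.65, MPZL3 -6.37, RIPPLY3 -6.07, TNNT2 -3.62 and SLPI -3.46, where MPZL3 and RIPPLY3 had no read in the OVCAR8 NR libraries, so that the same limit holds for them.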

How the results depend on the processing

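Of the calls of single genes with printed values, 70 of 70 differences between lines and 83 of 83 effects in 5637 were kept in every alternative tried, and 66 of 80 effects in OVCAR8. Part of this was a condition of naming. The largest genes alike in both lines had to be called in both without OVCAR8 parental control replicate 2. Genes named for 1 line had to have a called difference without it. The other 14, lost in at least 1 alternative, are CXCL1, ERBB3, HES1, ID1, IL6, ITGA6, KRT5, KRT8, LIF, LRRC8B, NOTCH3, SLC2A12, SMAD6 and TMCC3. No direction of a called value was reversed. The BCV, the spread between replicates in the edgeR fit, was 13.6%, and 5.74% without OVCAR8 parental control replicate 2.

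Counts moved by over 1.5 times under these settings. In the order up and down in OVCAR8, up in both, down in both, up in 5637 and down in OVCAR8, and the reverse, the counts with all 12 libraries were 689, 687, 317, 223, 184 and 119. DESeq2 gave 1069 and 1058 in OVCAR8, 342 down in both, 284 and 217. No filter gave 1034 down in OVCAR8. Each line alone gave 236, 254, 119, 87, 82 and 36, and, chosen after seeing the data, each line alone with OVCAR8 parental control replicate 2 left out gave 1844, 1788, 794, 658, 565 and 434. All 24 libraries in 1 fit gave 1409, 1475, 574, 466, 403 and 298. With a replicate block, 429 genes were up in OVCAR8, 211 up and 148 down in both, and 65 had the reverse pattern. Same-numbered libraries correlated in their deviations by -0.096 to 0.108, so the numbers did not pair the samples. At least 2-fold were 207, 269, 75, 51, 48 and 21 genes, besides 1787 up and 1334 down in 5637 and 1080 higher and 1525 lower in the difference.

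Of genes alike or opposite in both lines, 367 and 175 were called the same way on neratinib. These became 156 and 77 with each line alone, 269 opposite with all 24 libraries, 812 and 383 with each line alone and replicate 2 left out, and 58 and 33 at 2-fold.

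Leaving out each library in turn gave 352 to 1470 genes up and 372 to 1458 down in OVCAR8, 3446 to 5917 up and 3035 to 5453 down in 5637, 1835 to 3975 higher and 2349 to 4385 lower differences, 177 to 710 up and 127 to 567 down in both, 105 to 498 up in 5637 and down in OVCAR8, 61 to 361 the reverse, and 224 to 738 alike and 119 to 358 opposite genes called on neratinib. The highest count was in each case that without OVCAR8 parental control replicate 2. Without OVCAR8 NR control replicate 1, 2 or 3, 374, 359 and 352 genes were up and 435, 378 and 372 down in OVCAR8, and 243, 228 and 224 alike genes were called on neratinib. The 4 shared counts without OVCAR8 NR control replicate 3 were 177, 127, 106 and 65. Without OVCAR8 parental control replicate 1, 1051 genes were down in OVCAR8 and 340 in both, and without 5637 NR control replicate 1, parental control replicate 2 or 3 the reverse count was 75, 73 and 75. The causes of these moves were not tested.

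On simulated counts the test of the difference between lines found 4.48% of 1.5-fold differences. Few genes were changed in that simulation, whereas the difference was called for 27.3% of genes in the data. The adjusted threshold was therefore stricter there, and the simulated share does not give the share of small differences missed here. Small differences may still have been missed.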
